A study of Mus musculus with 24 samples.

Results

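Liver and inguinal white adipose tissue (iWAT, a fat depot under the skin of the groin) of wild-type mice on standard chow were compared gene by gene. The contrast used 6 of the 24 libraries of the series, 3 livers and 3 iWAT samples, and the 15256 of 54532 genes whose FPKM averaged at least 0.5 over these libraries. FPKM is the authors' level of a gene, its reads divided by its length and by a size for the library. Wild type (WT) here means mice with intact Mrs2, the channel for magnesium entry into mitochondria whose knockout (KO) the series studies, and neither the knockout nor the Western diet (WD) entered this contrast. The mice were 13 weeks old when the diets began and ate chow for 52 weeks. Per the labels, lymph nodes were removed from the iWAT, whole organs were crushed frozen, RNA came from 50 mg of liver or 100 mg of iWAT powder, and libraries were made from poly-A RNA. Each group is described as 3 biological replicates (mice), and the labels do not say whether a liver and an iWAT sample with the same number came from the same mouse.

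Most cells of the liver parenchyma are hepatocytes, which make the proteins of blood plasma, clear ammonia as urea, turn cholesterol into bile acids, release glucose in fasting and modify drugs and hormones for excretion. White adipose tissue stores triglyceride in adipocytes, releases fatty acids by lipolysis and secretes hormones such as adiponectin and leptin, and it holds many vessels, fibroblast-like progenitors and immune cells. The groin depot is also a site where adipocytes with the heat-producing protein UCP1 can appear. Because whole tissue was sequenced, fewer cells of a type and less RNA per cell cannot be told apart in any of the values below.

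A positive difference means a higher level in liver, on the log2(FPKM + 1) scale, given with its standard error (SE) and 3 libraries per tissue. A gene was called when limma's Benjamini-Hochberg adjusted p was under 0.05. It was counted as past 2-fold when limma's test against a 2-fold threshold (treat) gave an adjusted p under 0.05, and as held within 2-fold when the 95% interval of its difference lay wholly between -1 and 1. Adding 1 FPKM understates the change of genes with low levels. A gene could pass the filter of 0.5 FPKM through a single tissue. Counts for lists nearly absent from the other tissue therefore describe the genes and test nothing about the list.

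Of the genes tested, 4199 (27.5%) were called higher in liver and 4046 (26.5%) higher in iWAT. Past 2-fold were 1394 genes (9.14%) in liver and 958 (6.28%) in iWAT, while 7015 (46.0%) were held within 2-fold and 5889 (38.6%) were in neither class. The 3 livers and the 3 iWAT samples did not overlap in 9872 genes (64.7%). The genes past 2-fold in liver took 53.4% ± 2.26 (SD, n = 3) of the liver reads and 4.16% ± 0.205 of the iWAT reads. Those past 2-fold in iWAT took 22.8% ± 2.27 of the iWAT reads and 1.07% ± 0.058 of the liver reads. Genes held within 2-fold made up 21.6% ± 0.901 of liver and 36.8% ± 2.62 of iWAT reads. Differences of 5 or more on the log2 scale were counted for 348 genes past 2-fold in liver and 59 in iWAT. In 105 of the genes past 2-fold in liver no iWAT library held a read, and in 42 of those past 2-fold in iWAT no liver library did.

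**Figure D1:**
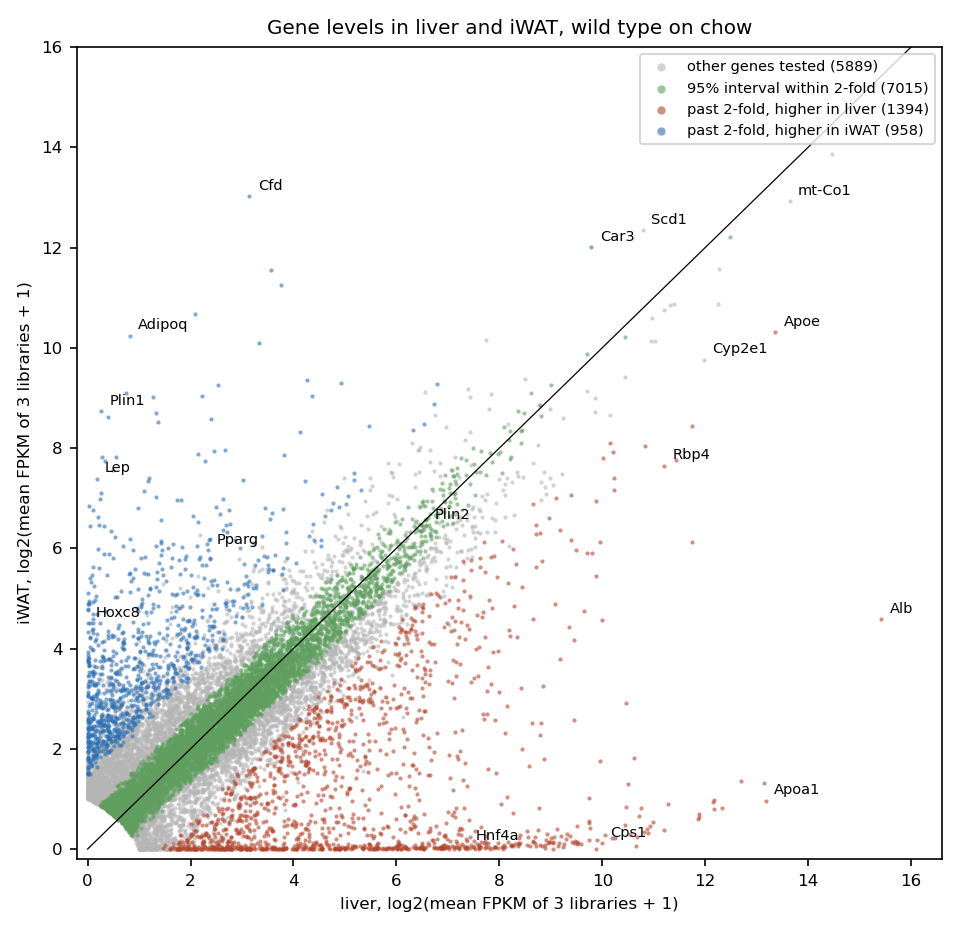
Mean FPKM of each gene tested in 3 livers (horizontal axis) and 3 iWAT samples (vertical axis), both as log2(mean + 1); colours mark the 4 classes and the line marks equal levels. Genes held within 2-fold lie along the line, the liver-high genes reach the bottom right corner with Alb, and Cfd, Adipoq and Plin1 stand at the upper left.

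Whether a difference between tissues is read correctly depends on the size by which each library was divided. The libraries held 15276070 to 15954539 reads in liver and 16189282 to 16955729 in iWAT, but the deposited FPKM used sizes of 0.769 to 0.854 times the reads in liver and 1.33 to 1.60 times in iWAT. These sizes followed a median of ratios between libraries, taken over all 24, so the median difference over all genes tested was near 0 (-0.005) by construction. Scaling by total reads in place of the deposited sizes moved that median to -0.62, and an anchor on 64 proteasome, spliceosome and RNA polymerase II genes moved it to -0.24, whereas TMM gave -0.03 and a median of ratios over the 6 libraries 0.03. Under the deposited sizes all 31 proteasome subunits were higher in liver (median 0.57), 15 of 33 spliceosome and RNA polymerase II genes were (median -0.005), and 26 of 75 cytosolic ribosomal proteins were (median -0.14). Under total reads the same counts were 5, 1 and 1. The 3 lists thus did not share a common offset, and no scaling brought all of them to 0.

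The split of calls moved with the scaling, and the direction of the large differences did not. Under the deposited sizes 59.3% of the genes past 2-fold were higher in liver, against 57.3% with TMM, 61.0% with a median of ratios over 6 libraries, 47.9% with the anchor (1186 in liver, 1289 in iWAT) and 32.5% with total reads (1021 and 2116). None of the 2352 genes past 2-fold turned direction under any of these 4 scalings, and 1979 to 2340 of them stayed past 2-fold. Genes past 2-fold were selected for differences beyond 1, and total reads moved the median of all genes only to -0.62. Their unchanged direction thus followed from the selection and tests nothing about the scaling. Among the 8245 called genes, 1043 turned under total reads, 2 under the anchor and 0 under TMM or the median of ratios. For genes named below with a small difference, the value under total reads is given where it changes the sign or the call. Ratios between a pair of genes inside the same library, used further on for listed pairs of genes, do not depend on the size at all.

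**Figure D2:**
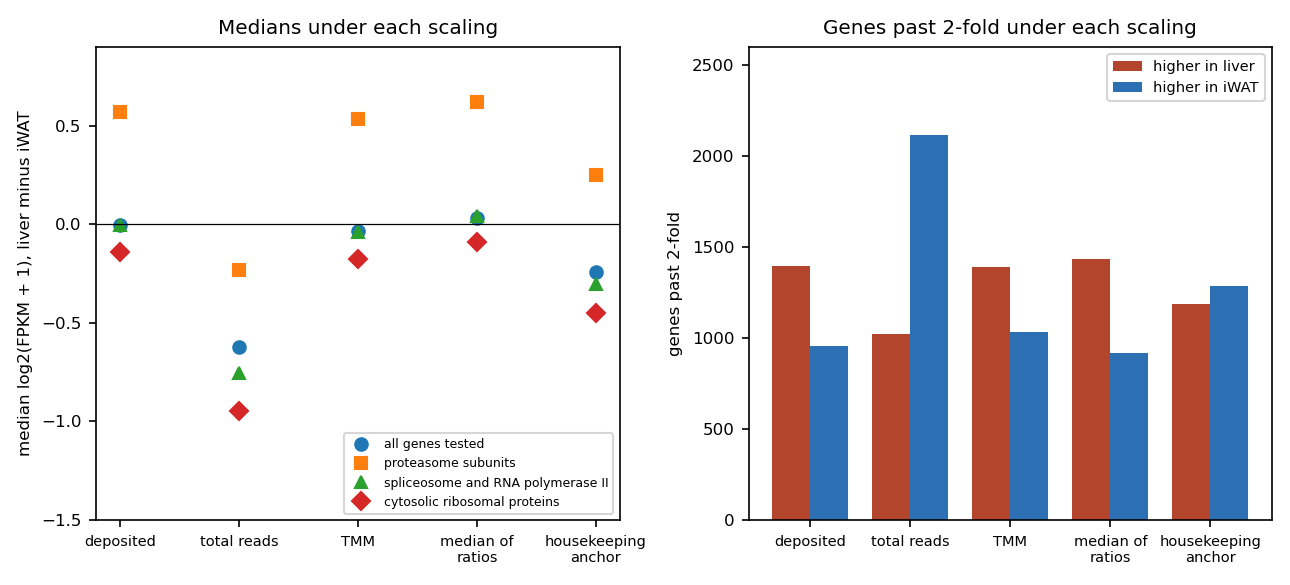
Left, the median log2 difference of all genes tested and of 3 housekeeping lists under each scaling of the libraries; right, the number of genes past 2-fold in each direction, on an axis from 0. The points shift down together under total reads, where the proteasome median turns below 0, and the taller bar changes from liver to iWAT under total reads and, by less, under the anchor.

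Albumin mRNA was the most abundant in liver. Alb, the main carrier protein of plasma, stood at 57310.1, 32514 and 41413 FPKM in the 3 livers and at 32.7, 23.1 and 13.6 FPKM in the iWAT samples, a difference of 10.87 (SE 0.37, adjusted p = 2.33e-06 against the 2-fold threshold). It alone took 8.19% ± 1.95 (SD, n = 3) of the liver reads and 0.00763% of the iWAT reads. The next protein-coding genes in liver were mt-Co1, a subunit of cytochrome c oxidase encoded in mitochondrial DNA, and the apolipoproteins Apoe, Apoa1 and Apoa2, in that order. In iWAT the order was Cfd, which encodes the complement protease adipsin, then mt-Co1, the desaturase Scd1, mt-Cytb and Car3, a carbonic anhydrase of adipocytes and muscle. By reads, Scd1 led iWAT with 3.55% ± 1.39. The gene model Gm23935, annotated as a miRNA of 57 bases, had the second highest FPKM in liver and the highest in iWAT while holding 0.103% and 0.121% of the reads, because FPKM divides by length. For that reason shares are given in reads: the 10 highest genes held 16.2% to 20.7% of the reads of a liver and 11.3% to 15.5% of those of an iWAT sample. Between 181 and 250 genes made up the first 50% of the liver reads, and between 604 and 900 made up the first 50% of the iWAT reads.

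Among genes past 2-fold with at least 10 FPKM in the higher tissue and no overlap between the tissues, 14 of the 15 most liver-high lay between 10.46 and 12.19 on the log2 scale. They were Apoa1, Apoa2, Hpx, Serpina1e, Ttr, Gc, Fabp1, Ahsg, Mup3, Serpina3k, Alb, Ambp, Fga and Serpina1d. Apart from the cytosolic fatty acid binding protein Fabp1, their products are secreted. The widest gap was that of Apoa1, the main protein of high-density lipoprotein, at 12189.6, 7853 and 7740.1 FPKM in liver and 0.894, 0.680 and 1.28 in iWAT, or 9724 times higher by the means. The 15 most iWAT-high lay between -7.12 and -10.11 and were Cfd, Adipoq, Fabp4, Plin1, Sncg, Retn, Gsn, Nnat, Ifi27l2a, Aoc3, Slc1a5, Retnla, Rgcc, Cav1 and Lep. They mix hormones of the adipocyte with its lipid droplet and membrane proteins, and Gsn, an actin-severing protein, is also high in the progenitors of fat.

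Carriers of blood plasma were on the liver side throughout. All 23 tested carriers and transport proteins of plasma were past 2-fold in liver, with a median difference of 8.73, and they held 13.1% ± 2.35 (SD, n = 3) of the liver reads against 0.173% ± 0.0308 in iWAT. Hpx, which binds free heme, was counted at 6009, 5589 and 3819.8 FPKM in liver and 0.619, 0.767 and 0.904 FPKM in iWAT. Ahsg, the fetuin that holds calcium in solution, stood at 5294, 2947 and 3023 and 0.503, 0.523 and 0.617 FPKM, with liver 1 above the other livers. For Gc, the vitamin D carrier, the values were 4069, 3408 and 3641 in liver and 0.575, 0.264 and 0.692 in iWAT, a 7264-fold gap between means that far exceeded the spread within either tissue.

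Of 27 coagulation genes tested, 19 were past 2-fold in liver and 3 in iWAT (median 6.87). The fibrinogen chains, whose polymer forms the clot, went together: Fga was at 2858, 1444 and 1394 FPKM in liver and 0.162, 0.279 and 0.296 FPKM in iWAT, Fgb at 2154, 1124 and 1199 and 0.197, 0.267 and 0.254, and Fgg at 2626, 1408 and 1337 and 0.232, 0.423 and 0.166. In each of them liver 1 held the highest value. Prothrombin (F2, difference 8.81, SE 0.15) and plasminogen (Plg, 9.36, SE 0.16) followed. The 3 genes past 2-fold in iWAT act at the vessel wall or come from other cells: thrombomodulin (Thbd), an endothelial brake on clotting, was at 1.73, 1.77 and 1.11 FPKM in liver and 58.9, 50.1 and 26.6 in iWAT, tissue factor (F3), which starts clotting, at 2.64, 1.61 and 2.98 and 18.9, 17.6 and 10.1, and the factor XIII A chain (F13a1), made by macrophages among others, at 0.230, 0.137 and 0.108 and 22.01, 17.2 and 8.24.

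Complement genes were divided between the tissues. Of 25 tested, 15 were past 2-fold in liver, among them C3 at 3133, 2974 and 2143 FPKM in liver and 243, 239.5 and 161 in iWAT, the inhibitor Cfi (difference 8.61, SE 0.17) and the lytic pore genes C8a (8.50, SE 0.18) and C9 (7.74, SE 0.14). The 2 past 2-fold in iWAT were Cfd and C7. Cfd read 3.54, 15.97 and 4.05 FPKM in the livers and 9378, 9817 and 5742 FPKM in iWAT, a difference of -10.11 (SE 0.53), the largest towards iWAT of any gene named by the rule. C7 was at 1.68, 1.40 and 0.879 FPKM in liver and 26.1, 68.3 and 13.99 in iWAT (adjusted p = 0.00767 against the 2-fold threshold). The classical pathway starters C1qa, C1qb and C1qc, which macrophages make, were not called: C1qa was at 44.1, 94 and 43.7 FPKM in liver and 118, 100.2 and 87.8 in iWAT, and liver 2 was the highest of the livers. Without liver 2, limma called C1qa higher in iWAT (-1.19, adjusted p = 0.00416), as under total reads (-1.64, adjusted p = 0.00492) and the anchor (-1.15, adjusted p = 0.0158).

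Start regions of the differing genes were unlike in base composition. A window of 300 bases, 250 before and 50 after the start, was found in RefSeq (GRCm38.p6) for 993 of the genes past 2-fold in liver, 662 of those past 2-fold in iWAT and 10351 of all genes tested. The median window held 10 CpG dinucleotides in the liver-high genes, 17.5 in the iWAT-high genes and 22 in the genes held within 2-fold, against 20 over all genes tested. The TATAAA box, searched on both strands as were all motifs, was in 13.1%, 12.1% and 6.08% of these windows in that order and in 7.80% of all windows. The sequence GTTAATNAT, with any base at N and known from promoters of hepatocyte genes, was in 3.52% of the liver-high windows (35 genes), 0.302% of the iWAT-high (2 genes), 0.195% of those held within 2-fold and 0.589% of all. An HNF4 site, CAAAGTCCA, was in 1.51%, 0.151% and 0.352%, with 0.502% over all genes tested. The C/EBP palindrome TTGCGCAA was in 0.201%, 0.302% and 0.313%, with 0.280% over all genes tested, and the NF-Y box CCAAT in 43.5%, 31.3% and 38.9%, with 38.3% over all genes tested. These are shares of letters in a window, and no binding was measured.

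The 5 liver-high genes with the largest differences among those whose match to GTTAATNAT lies in the 100 bases before the start are shown, with the matching bases in capitals, to let the position be compared. Gc is on the minus strand at chr5:89457899-89457998, Alb on the plus strand at chr5:90460770-90460869, Fga on the plus strand at chr3:83026053-83026152, Hc on the minus strand at chr2:35061413-35061512 and Slco1b2 on the plus strand at chr6:141629418-141629517, all on GRCm38.p6 and written 5′ to 3′ on the strand of the gene.
Gc: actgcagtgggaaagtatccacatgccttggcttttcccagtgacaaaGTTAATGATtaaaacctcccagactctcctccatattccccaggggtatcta
Alb: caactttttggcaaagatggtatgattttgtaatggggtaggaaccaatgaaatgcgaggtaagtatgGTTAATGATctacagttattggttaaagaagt
Fga: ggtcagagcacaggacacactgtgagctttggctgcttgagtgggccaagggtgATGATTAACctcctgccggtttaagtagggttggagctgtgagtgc
Hc: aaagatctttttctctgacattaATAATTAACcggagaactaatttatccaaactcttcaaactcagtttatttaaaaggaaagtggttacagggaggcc
Slco1b2: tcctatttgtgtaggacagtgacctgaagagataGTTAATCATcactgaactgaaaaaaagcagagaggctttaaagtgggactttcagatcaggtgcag
Counted from the RefSeq start, the first matching base is at -52 in Gc, -32 in Alb, -46 in Fga, -77 in Hc and -66 in Slco1b2, and in Fga and Hc the match reads on the other strand. These positions depend on the annotation. The deposited gene models start Fga at 83026076, inside the stretch shown, and Alb at 90460897. Hc, the complement C5 gene, was at 433, 422 and 253 FPKM in liver and 0.325, 0.205 and 0.315 in iWAT. The same stretch of Adipoq, on the plus strand at chr16:23146436-23146535, holds no such match. The sequence was in 0.589% of all windows, so its absence from a single gene shows no difference between the tissues.
Adipoq: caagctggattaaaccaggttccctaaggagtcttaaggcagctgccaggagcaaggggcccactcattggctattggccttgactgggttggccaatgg

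The machinery for lipoproteins was liver-high except for genes that act on lipoproteins at the vessel. Of 26 tested, 20 were past 2-fold in liver and Lpl alone in iWAT. Apob, the scaffold of very-low-density lipoprotein, was at 745, 694 and 690.3 FPKM in liver and 0.114, 0.111 and 0.122 in iWAT. Apoe, which directs remnants to the liver, was past 2-fold as well but stayed abundant in fat, with 9063, 11258 and 11230 FPKM in liver and 1249, 1512 and 1068 FPKM in iWAT (difference 3.05, SE 0.23). Lpl, the lipase that takes fatty acids from lipoproteins into adipose tissue, was at 6.21, 4.27 and 3.86 FPKM in liver and 664, 658 and 523 FPKM in iWAT. Its anchor on capillaries, Gpihbp1, was called higher in iWAT without passing 2-fold (-1.74, SE 0.24), and its inhibitor Angptl4 was not called, with values of 20.2, 49.5 and 25.5 FPKM in liver and 102, 47.3 and 30.4 FPKM in iWAT that overlap. Under total reads Angptl4 was called higher in iWAT (-1.63, limma adjusted p = 0.0237).

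Major urinary proteins, pheromone carriers that the liver secretes, were liver-high but uneven from liver to liver. All 17 of the 21 listed genes that could be tested were called higher in liver and 13 were past 2-fold. The whole list summed to 1.09 to 2.51 FPKM in an iWAT library, so its members passed the level filter through liver. This count therefore describes the genes and tests nothing about the family. Mup3 read 3767, 3901 and 6230.4 FPKM in the livers and 1.12, 0.704 and 1.05 in iWAT, and Mup20, known as darcin, 1579, 2116 and 1460.4 and 0.810, 0.286 and 1.21. Mup7 and Mup12, in contrast, went from 162, 1233 and 3458 FPKM and from 25.7, 655 and 2140.1 FPKM between liver 1, liver 2 and liver 3, so that liver 1 was low in both, and their SEs were 1.02 and 1.49. Mup12 and Mup21 had no read in any iWAT library. Mup genes are near copies of each other, and how reads that fit several of them were assigned is not given in the sources used here, so single values within the family are uncertain.

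Hormones and binding proteins that the liver releases included 18 of 23 tested past 2-fold in liver and none in iWAT. Hamp, the iron hormone hepcidin, was at 141, 2626 and 3275 FPKM in liver and 0.216, 0.108 and 1.04 in iWAT, with liver 1 far below the others. Igfbp2, a binding protein of insulin-like growth factors, was at 423, 215 and 573 and 0.0479, 0.0718 and 0.189 FPKM. Igf1 itself was 1.93 higher in liver (SE 0.26), with 60.2, 79.1 and 84.6 FPKM in liver and 22.1, 23.2 and 12.5 FPKM in iWAT. The growth hormone receptor Ghr was held within 2-fold at 80.8, 84.2 and 98.02 FPKM in liver and 106, 88.3 and 46.99 FPKM in iWAT, and iWAT 3 was the lowest of the 6. Its difference of 0.20 (SE 0.30) turned to -0.62 under total reads.

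Bile acid genes were all on the liver side. Every one of the 23 tested was past 2-fold, between 4.01 and 8.81. The ligase Slc27a5, which prepares bile acids for conjugation, was at 453, 449.7 and 597 FPKM in liver and 0.145, 0.0725 and 0.0953 in iWAT. Slc10a1, the uptake transporter of the hepatocyte's blood side, was at 253, 300 and 446 and 0.181, 0.141 and 0.158 FPKM. Slco1b2, an organic anion carrier of the same membrane, was at 191, 244 and 355 and 0.0359, 0.00897 and 0.0236 FPKM.

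Urea cycle enzymes were abundant in liver and low in iWAT. Of 14 genes for the cycle and for ammonia handling, 10 were past 2-fold in liver and 1 in iWAT. Cps1, the entry enzyme in mitochondria, was at 1162, 858 and 1047 FPKM in liver and 0.111, 0.0716 and 0.0836 in iWAT, Otc at 116, 102 and 122 and 0.0104, 0.0104 and 0.00913, Ass1 at 1039, 747 and 1192 and 1.56, 2.09 and 3.46, and Arg1, which releases urea, at 767, 711 and 689.8 and 0.397, 0.476 and 0.261. Gls2, which splits glutamine in hepatocytes, was past 2-fold in liver (7.11, SE 0.19), while Glul, which makes glutamine, was not called at 179.9, 326 and 351 FPKM in liver and 262, 488 and 310.1 FPKM in iWAT. Under total reads Glul was called higher in iWAT (-1.14, limma adjusted p = 0.0242).

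Enzymes that break down amino acids were called higher in liver for all 32 tested, 30 of them past 2-fold (median 6.44). Gnmt, which uses up surplus methyl groups, was at 2179, 1220.3 and 1644 FPKM in liver and 0.440, 0.880 and 0.417 in iWAT. The branched-chain amino acids, which muscle and fat also burn, gave another picture. Of 19 tested, 2 were past 2-fold in liver, 2 in iWAT and 8 held within 2-fold. This lay near the shares over all genes tested, 9.14% in liver, 6.28% in iWAT and 46.0% within 2-fold. Bcat2, the transaminase of the first step, was at 14.2, 8.22 and 9.21 FPKM in liver and 51.95, 48.02 and 41.6 in iWAT, with no overlap. Bckdk, the kinase that switches the second step off, was higher in iWAT (-1.65, SE 0.16), and Ppm1k, the phosphatase that switches it on, in liver (2.44, SE 0.21). The median of this list was 0.24 and turned to -0.55 under total reads and -0.07 under the anchor.

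Drug-metabolising genes were liver-high with a few present in both tissues. Of 30 cytochrome P450 genes of families 1 to 4, 23 were past 2-fold in liver and Cyp1b1 in iWAT. Cyp3a11, a main enzyme of drug oxidation in the mouse, was at 1393, 751 and 1044 FPKM in liver and 0.156, 0.269 and 0.220 in iWAT. Cyp2e1, which oxidises ethanol and ketones, was the most abundant of the P450 genes in both tissues, at 2197, 4237 and 5668 FPKM in liver and 1006, 853 and 742 FPKM in iWAT. Its difference of 2.12 (SE 0.37) was called and did not pass 2-fold (adjusted p = 0.0647 against the threshold). Cyp2a5 spread widely over the livers (145, 818 and 1223 FPKM), again with liver 1 lowest. Conjugating enzymes of phase II numbered 22 of 31 past 2-fold in liver and none in iWAT, led by the glucuronyl transferase Ugt2b5 at 281, 409 and 559 FPKM in liver and 0.0951, 0.0238 and 0 in iWAT. The sulfotransferase Sult1a1 was called without passing 2-fold, at 279, 185 and 231 FPKM in liver and 98.3, 128 and 64.6 FPKM in iWAT, and its call was lost under total reads (0.46, limma adjusted p = 0.102). Genes of the Cyp2d, Ugt2b and Ugt1a groups share sequence or exons, which makes their single values less certain.

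Glucose genes separated by step. In the list for gluconeogenesis and glycogen, 10 of 23 were past 2-fold in liver and 2 in iWAT. G6pc, which frees glucose for export, was at 242, 212 and 66.6 FPKM in liver and 0.128, 0 and 0.0481 in iWAT, and Fbp1, the fructose bisphosphatase of liver, at 639, 663 and 674 and 0.104, 0.130 and 0.341. Pck1, which feeds gluconeogenesis in liver and makes the glycerol backbone of triglyceride in fat, was high in both: 931, 1129.5 and 704 FPKM in liver and 734, 368 and 424 FPKM in iWAT, not called (limma adjusted p = 0.0517). Without iWAT 1, Pck1 was called higher in liver (1.19, limma adjusted p = 0.0175). Pcx, pyruvate carboxylase, was called higher in iWAT at 142, 159 and 156 FPKM in liver and 226, 254 and 189 FPKM in iWAT, and its interval stayed within 2-fold (-0.94 to -0.15). The call of Pcx ended when any 1 of iWAT 1, iWAT 2 or the 3 livers was left out (limma adjusted p = 0.0653 to 0.0904). Under total reads its difference was -1.37, no longer within 2-fold.

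Fatty acid oxidation was liver-high for part of its genes. Past 2-fold were 16 of 35 in liver and Oxct1 in iWAT, and 8 were held within 2-fold. Bdh1, which interconverts the ketone bodies, was at 67.9, 71.1 and 88.8 FPKM in liver and 0.171, 0.0455 and 0.796 in iWAT. Oxct1, which starts the use of ketone bodies, was at 2.29, 2.51 and 3.29 FPKM in liver and 60.9, 45.8 and 34.1 FPKM in iWAT. Acadl, a dehydrogenase of the mitochondrial cycle, was held within 2-fold with 121, 109.7 and 160.2 and 128, 133 and 100 FPKM, and its difference turned from 0.11 to -0.72 under total reads, then called (limma adjusted p = 0.00787). In the list of peroxisome proteins 12 of 29 were past 2-fold in liver, with Uox, the urate oxidase, at 684, 472 and 682 FPKM in liver and 0.0441, 0.0442 and 0.131 in iWAT, and Abcd2, an importer of very long acyl chains, was past 2-fold in iWAT at 15.99, 4.35 and 12.8 and 109.8, 119 and 80.3.

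Cholesterol synthesis was called higher in liver for 20 of 25 genes, 15 of them past 2-fold, and none was called higher in iWAT. Hmgcs1, the first committed synthase, varied within liver from 289.9, 62.3 and 32.1 FPKM in livers 1, 2 and 3 and was not called (limma adjusted p = 0.0691). Without liver 3 its difference was 2.68 and called (limma adjusted p = 0.0275). The secretory pathway, which folds and exports proteins, was called higher in liver for 30 of 35 genes, 8 of them past 2-fold. Over all genes tested these shares were 27.5% and 9.14%. The count moved with the scaling: under total reads 12 were called higher in liver and 2 in iWAT, and under the anchor 24 and 1. The median of this list fell from 1.22 to 0.42 under total reads. P4hb, a disulfide isomerase, was at 677, 564 and 502 FPKM in liver and 93.7, 87.8 and 64.3 in iWAT. The chaperone Hspa5 was at 511, 239.6 and 122 FPKM in livers 1, 2 and 3 and at 81.1, 67.2 and 47.1 FPKM in iWAT, and was called without passing 2-fold. Without iWAT 3 the call of Hspa5 was lost (limma adjusted p = 0.0626), as it was under total reads (0.0771). Liver 1 was the highest of the livers for Hmgcs1, Hspa5, P4hb and the fibrinogens, and the lowest for Hamp, Cyp2a5, Mup7 and Mup12.

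**Figure D3:**
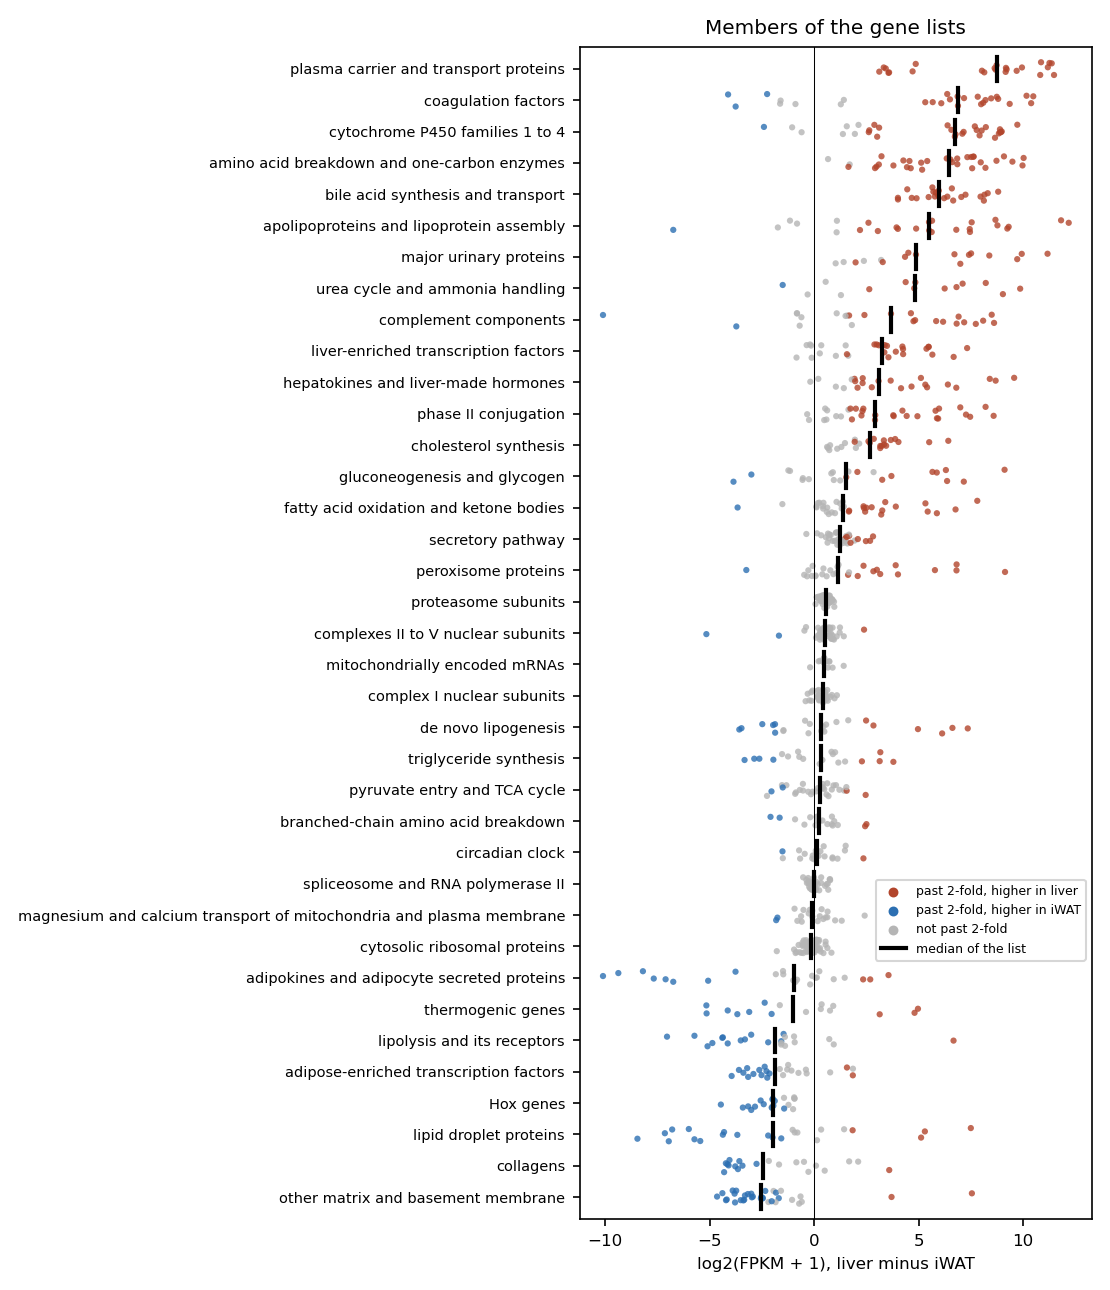
Difference between liver and iWAT, log2(FPKM + 1), for each tested member of 37 gene lists, 1 point per gene, with the median of each list as a bar and colours for genes past 2-fold. Lists of plasma proteins, bile acids and P450 enzymes lie to the right, matrix, collagens, lipid droplet and Hox genes to the left, and housekeeping lists gather close to 0.

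On the adipose side, secreted products were split between genes that are nearly specific to fat in these data and genes that liver shares. Of 24 adipokines and related proteins tested, 8 were past 2-fold in iWAT and 3 in liver. Adipoq, which encodes adiponectin, was at 1458, 1342 and 826 FPKM in iWAT and 0.885, 0.833 and 0.587 FPKM in liver (difference -9.38, SE 0.23). Lep, the hormone of fat stores, was at 165, 240 and 94.3 FPKM in iWAT and 0.170, 0.0686 and 0.145 in liver, and Retn, resistin, at 539.6, 338 and 307 and 0.206, 0.0971 and 0.668. In these 3 genes iWAT 3 was the lowest iWAT sample. Rbp4, the retinol carrier that both tissues secrete, was on the liver side with 2054, 2195 and 2845 FPKM in liver and 227, 209.6 and 162 FPKM in iWAT. Dpp4, a peptidase shed into blood, was also past 2-fold in liver, and Vegfa, the vessel growth factor, was held within 2-fold (0.07, SE 0.20, and -0.75 under total reads, where it was called with a limma adjusted p = 0.00587).

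Coats and enzymes of the lipid droplet were past 2-fold in iWAT for 13 of 23 genes and in liver for 4. Plin1, the coat that gates lipolysis in adipocytes, was at 463, 456 and 353 FPKM in iWAT and 0.228, 0.0990 and 0.262 FPKM in liver. Cidec, which fuses droplets, was at 1238, 1219.8 and 814 FPKM in iWAT and 6.50, 16.9 and 3.71 FPKM in liver, where liver 2 was highest. Plin2, the general droplet coat, was held within 2-fold: 96.5, 90.8 and 95.7 FPKM in liver and 103, 88.4 and 69.3 FPKM in iWAT, with an interval of -0.28 to 0.55. Under total reads the difference of Plin2 turned from 0.14 to -0.69 and was called (limma adjusted p = 0.00426). The 4 on the liver side were Hsd17b13 at 273, 148 and 163 FPKM in liver against 0.0410, 0.0205 and 0.0538 in iWAT, Hsd17b11, Cideb and Fitm1. Cav1 and Cavin1, which build the pits of the adipocyte membrane, were higher in iWAT by 7.15 (SE 0.20) and 5.46 (SE 0.19).

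Lipolysis followed the same order. Of 22 genes tested, 13 were past 2-fold in iWAT, and Aqp9 was in liver. The lipases that act in turn on stored fat were Pnpla2 at 668, 725 and 492 FPKM in iWAT and 22.9, 28.8 and 36.6 in liver, Lipe at 241, 252 and 214 and 3.10, 3.61 and 3.61, and Mgll at 185, 177 and 128 and 24.4, 42.7 and 38.5. Adrb3, the receptor by which noradrenaline starts lipolysis, was at 131, 76.3 and 114 FPKM in iWAT and 3.57, 3.13 and 10.3 FPKM in liver. Hcar1, the lactate receptor that holds lipolysis back, was also past 2-fold in iWAT, at 27.01, 29.7 and 29.98 and 0.0496, 0 and 0. Insr, the insulin receptor, was called higher in liver without passing 2-fold (0.72, SE 0.18), and under total reads its difference was -0.05. Its call was also lost without liver 3 or iWAT 3 (limma adjusted p = 0.0508 and 0.0503). G0s2, an inhibitor of Pnpla2, was not called and ranged from 37.8, 230.4 and 75.9 FPKM in livers 1, 2 and 3 to 182, 218 and 119 in iWAT. Without liver 2, G0s2 was called higher in iWAT (-1.63, limma adjusted p = 0.0206), as under total reads (-1.75, limma adjusted p = 0.0465).

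Synthesis of fat was shared. In the triglyceride list 4 of 20 were past 2-fold in liver and 4 in iWAT, and in the de novo lipogenesis list 6 and 6 of 23. Fasn, the fatty acid synthase, was at 127, 86.5 and 115 FPKM in liver and 683, 666 and 502 FPKM in iWAT (difference -2.49, SE 0.22). Scd1 was abundant in both, at 1979.9, 1830.2 and 1489 FPKM in liver and 4113, 7979 and 3552 FPKM in iWAT, with iWAT 2 highest, and its difference of -1.48 (SE 0.35) did not pass 2-fold. Elongation and desaturation of polyunsaturated chains were on the liver side: Elovl2 was at 229.8, 115 and 169 FPKM in liver and 0.0334, 0 and 0 in iWAT and Fads2 at 337, 353 and 506 and 4.78, 5.69 and 3.59. Dgat1, an enzyme of the final step of triglyceride synthesis, was past 2-fold in iWAT (-2.87, SE 0.13), and Thrsp, a lipogenic regulator, was not called at 158, 701 and 441 and 519, 635 and 229 FPKM. The medians of these lists were 0.33 and 0.34 and turned to -0.35 and -0.48 under total reads.

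Of the markers of heat-producing fat, Ucp1 was nearly absent and others were well expressed in iWAT. Ucp1 averaged under the 0.5 FPKM filter and was not tested, at 0.0270, 0.568 and 0.0710 FPKM in iWAT and 0, 0 and 0.0991 FPKM in liver. Of 16 thermogenic genes tested, 7 were past 2-fold in iWAT and 3 in liver. Cidea, a droplet protein of brown and beige fat, was at 26.5, 45.4 and 28.2 FPKM in iWAT and 0.910, 6.65 and 0.209 in liver, and Cox8b, a subunit of cytochrome oxidase in heart, muscle and brown fat, at 103, 92.4 and 104 and 0, 1.49 and 7.88, highest among livers in liver 3. Elovl3, an elongase of brown fat that liver also makes, was on the liver side at 62.7, 47.8 and 16.2 FPKM in liver and 0.0887, 0.385 and 0.155 FPKM in iWAT.

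Collagens were past 2-fold in iWAT for 10 of 20 genes tested and in liver for Col18a1. Col3a1, a fibrillar collagen, was at 176, 86.1 and 74.4 FPKM in iWAT and 3.54, 7.63 and 2.77 FPKM in liver, and iWAT 1 was the highest. Col4a1 of basement membranes was at 132, 103 and 70.1 and 6.47, 5.03 and 3.35 FPKM. Col18a1, the source of endostatin, went the other way with 241, 168 and 171 FPKM in liver and 20.6, 15.7 and 10.1 FPKM in iWAT. Among 34 further matrix genes 24 were past 2-fold in iWAT. The 2 past 2-fold in liver, Fn1 (3.71, SE 0.52) and Vtn (7.55, SE 0.23), encode fibronectin and vitronectin, which hepatocytes release into plasma.

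Many steps of metabolism can be carried out by either of a pair of related genes. Set side by side were 35 pairs, each with a gene listed as the liver form and a form listed for fat or other tissues. Not every pair shares a step: Bdh1 and Oxct1 act at different steps of ketone use, and Ppara/Pparg and Fgfr4/Fgfr1 are receptors. Bcat1, listed as a liver form, averaged 0 FPKM in liver. The counts below include these pairs. In 15 pairs both forms were past 2-fold in the listed direction. The liver form was past 2-fold in liver in 22 pairs, and the other form was past 2-fold in iWAT in 23. In 18 pairs the liver form had the higher FPKM in every liver and the lower FPKM in every iWAT sample. No iWAT form was called higher in liver, and in 6 pairs the liver form was called higher in iWAT. These are 5 genes, Pfkl in 2 pairs, Dgat2, Acacb, Scd1 and Gpd1.

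Glucose use illustrated the exchange. Slc2a2, the glucose carrier of hepatocytes, was at 53.4, 86.6 and 122 FPKM in liver and 0.0307, 0 and 0.0135 in iWAT, while Slc2a4, the carrier that insulin moves to the membrane, was at 0.234, 0.265 and 1.80 and 73.3, 78.99 and 63.2. Liver 3 was the highest liver for Slc2a4, which muscle also makes. For pyruvate kinase, Pklr was at 57.6, 121 and 138 FPKM in liver and 0.0137, 0 and 0.0239 in iWAT and Pkm at 6.18, 8.56 and 5.71 and 65.8, 61.9 and 62.1.

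Lipid handling gave similar exchanges. Fabp1 was at 4468, 3779 and 5341 FPKM in liver and 1.28, 0.720 and 0.770 in iWAT and Fabp4, its adipocyte relative, at 5.32, 1.91 and 2.48 and 1944, 1752 and 1201. Within livers the log2 ratio of Fabp1 to Fabp4 was 9.71 to 11.08, and within iWAT samples it was -11.25 to -10.57. Glycerol channels (Aqp9 at 118, 118 and 132 FPKM in liver and Aqp7 at 39.9, 34.9 and 35.5 FPKM in iWAT) and fatty acid receptors (Ppara 3.91, SE 0.24, and Pparg -3.60, SE 0.28) were exchanged in the same way. Other pairs were not. Irs1, a docking protein of the insulin receptor, was called higher in iWAT (-0.73, SE 0.17), its partner Irs2 was not called (-0.69, SE 0.47), and their ratio overlapped between tissues. Without liver 1, Irs2 was called too (-1.19, limma adjusted p = 0.0243), as under total reads (-1.42, limma adjusted p = 0.0235). Gpd1, listed as the liver form of glycerol phosphate dehydrogenase, was past 2-fold in iWAT (-1.96, SE 0.29). Car3, listed for iWAT, was past 2-fold there but remained abundant in liver at 979, 756 and 913 FPKM, against 5189, 4151 and 2964 FPKM in iWAT.

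**Figure D4:**
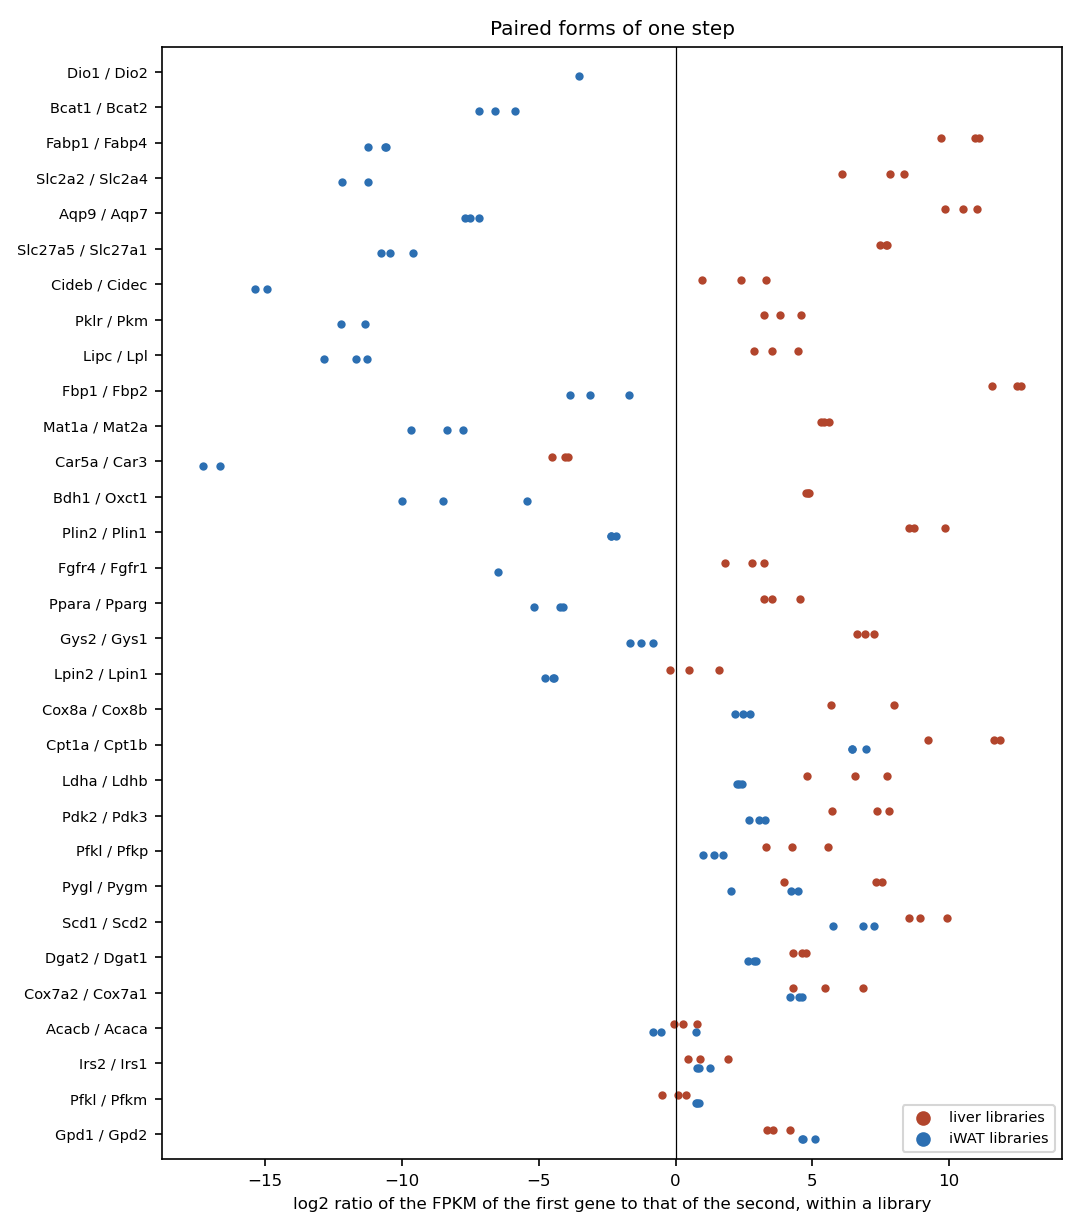
Log2 ratio of the FPKM of the liver form to that of the other form within each library, for 31 of the 35 pairs ordered by the gap between tissues; colours mark livers and iWAT samples, and a library without reads of one of the forms is not drawn, as in all livers for Dio1/Dio2 and Bcat1/Bcat2. From Fabp1/Fabp4 to Gys2/Gys1 the tissues lie on opposite sides of 0 except for Car5a/Car3, while the lowest pairs overlap or keep the same sign in both tissues.

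Transcription factors named for liver were past 2-fold there in 18 of 28 cases and in no case in iWAT. Hnf4a, a nuclear receptor that many hepatocyte genes depend on, was at 146, 185 and 165 FPKM in liver and 0.0183, 0.00916 and 0.0721 in iWAT. The forkhead factor Foxa3 was at 34.8, 36.5 and 56.01 FPKM in liver and 0.0434, 0 and 0.0190 in iWAT. Among factors named for adipose tissue 12 of 24 were past 2-fold in iWAT and 2, Klf15 and Tcf21, in liver. Pparg, the master regulator of adipocytes, was at 69.2, 73.4 and 41.5 FPKM in iWAT and 4.53, 5.01 and 2.72 FPKM in liver, and Ebf1, a factor of the adipocyte lineage, at 15, 9.95 and 7.32 and 0.142, 0.0786 and 0.0249. Cebpa, which both cell types use, was in both lists and was held within 2-fold, with 238, 209.5 and 365 FPKM in liver and 390.1, 346 and 286 FPKM in iWAT (difference -0.36, SE 0.25). Under total reads Cebpa was called higher in iWAT at -1.19 (limma adjusted p = 0.00334). Cebpb was called higher in liver without passing 2-fold (1.86, SE 0.38).

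Hox genes, which mark the position of cells along the body axis, were expressed in iWAT and nearly absent from liver. Of 39 genes in the clusters, 20 passed the level filter, all of them called higher in iWAT, 13 past 2-fold. A gene could pass that filter through iWAT alone, so this count describes the genes and tests nothing about the clusters. Hoxc8 led with 27.8, 22.7 and 14.95 FPKM in iWAT and no read in any liver, at least 774 times higher when liver is set to a floor of 3 reads over the group. Also without a liver read and past 2-fold were Hoxc4, Hoxc5, Hoxc9, Hoxc10 and Hoxa6, at 2.90, 5.01, 7.28, 8.39 and 2.77 FPKM on average in iWAT. Hoxc6 was at 12.5, 11.9 and 7.22 FPKM in iWAT and 0.0677, 0.0955 and 0 in liver, Hoxa7 at 5.95, 7.64 and 5.56 and 0.0283, 0 and 0.0564, and Hoxd8 at 4.24, 4.50 and 4.44 and 0, 0 and 0.0296. Hoxa9 (-1.999), Hoxb6 (-1.98), Hoxb7 (-2.03) and Hoxd9 (-1.44) completed the genes past 2-fold. Called without passing 2-fold were Hoxa3, Hoxa4, Hoxa5, Hoxa10, Hoxb4, Hoxb5 and Hoxb8, between -0.94 and -2.03. Hoxb4 was the one Hox gene above 1 FPKM in liver, at 1.56, 1.40 and 1.04 FPKM against 3.67, 3.79 and 3.05 FPKM in iWAT. The genes at the far ends of the clusters (Hoxa11, Hoxa13, Hoxb13, Hoxc11 to Hoxc13 and Hoxd10 to Hoxd13) stayed under 0.5 FPKM in every library of both tissues.

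**Figure D5:**
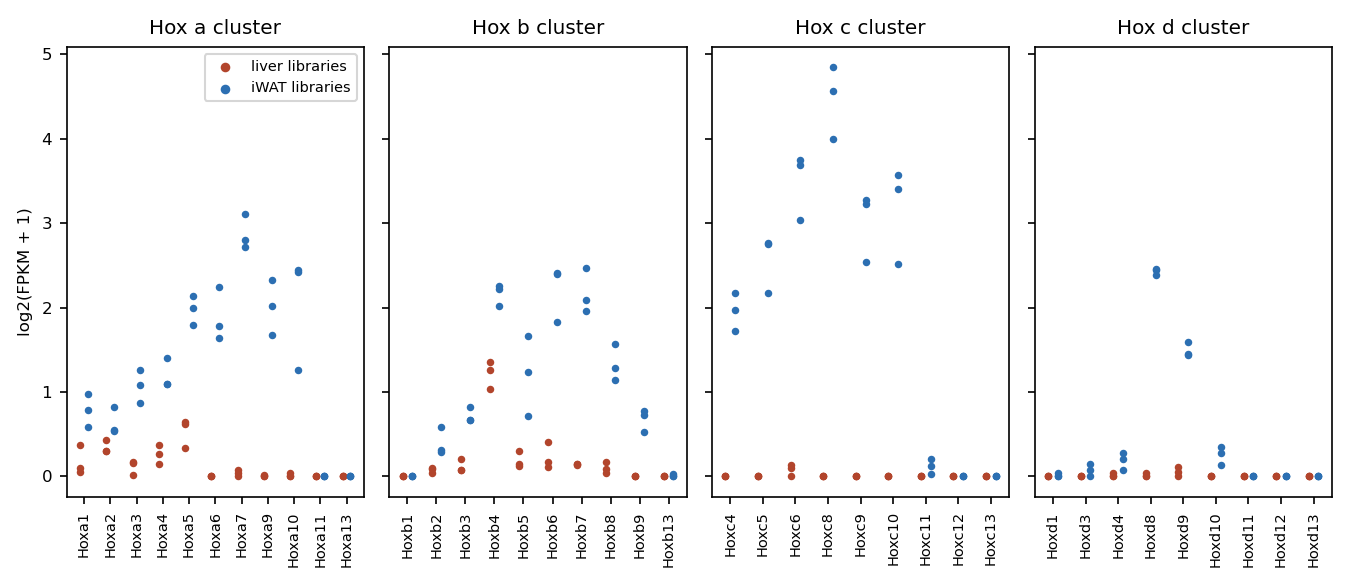
Level of each Hox gene, log2(FPKM + 1), in 3 livers and 3 iWAT samples, in the order of the 4 clusters. The iWAT points rise in the middle of each cluster, highest at Hoxc8, and the liver points stay below 1 on this scale apart from Hoxb4.

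Among mitochondrial genes, those of complex I mostly stayed within 2-fold. Of its 36 nuclear subunits, 31 were held within 2-fold (46.0% of all genes tested), none was past it, and 19 were called higher in liver. Of 43 subunits of complexes II to V, 20 were held within 2-fold, near the share over all genes tested. Past 2-fold were 1 in liver (Atp5g1, 2.39, SE 0.11) and 2 in iWAT (Cox8b and Cox4i2). The medians were 0.42 and 0.50. Under total reads they turned to -0.38 and -0.28, with 21 and 19 genes then called higher in iWAT, so no direction is given for the respiratory chain as a group. Among 13 mRNAs of mitochondrial DNA, 4 were held within 2-fold and 2 were called higher in liver. One of the latter was mt-Co1, at 13514, 11659.8 and 13129 FPKM in liver and 8731, 8609 and 6032 FPKM in iWAT (0.73, and -0.10 under total reads). The call of mt-Co1 held without iWAT 3 and was lost without any 1 of the other libraries (limma adjusted p = 0.0634 to 0.136). Poly-A selection samples these mRNAs through their short tails.

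In the citric acid cycle the direction differed by enzyme. Cs, citrate synthase, was at 22.7, 19.7 and 23.8 FPKM in liver and 69.5, 68.6 and 55.8 FPKM in iWAT, and Idh3a, of the NAD-linked isocitrate dehydrogenase, at 4.71, 9.61 and 10.4 and 38.2, 40.6 and 28.8, both past 2-fold in iWAT. Suclg2 and Suclg1, subunits of succinyl-CoA ligase, were past 2-fold in liver (2.47, SE 0.14, and 1.56, SE 0.13). The remaining genes of the list of 30 were not past 2-fold, and 11 were held within it.

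Mrs2, the gene knocked out elsewhere in the series, was low in both tissues. It was at 6.26, 5.87 and 6.50 FPKM in liver and 4.48, 4.67 and 3.88 FPKM in iWAT, without overlap, and its difference of 0.44 (SE 0.11) was called (adjusted p = 0.0152) and held within 2-fold (0.17 to 0.70). Under total reads the value was -0.26, so the direction rests on the scaling. In GENCODE vM21, 32.4% of the exonic bases of Mrs2 also belong to Gpld1, a phospholipase on the opposite strand, which was at 75.5, 80.2 and 69.7 FPKM in liver and 1.72, 1.47 and 0.958 in iWAT. Strandedness is not given in the sources used here, and reads of the genes cannot be told apart in the shared part. Of the 21 genes of magnesium and calcium transport tested, 10 were held within 2-fold, near the 46.0% of all genes tested. None was past 2-fold in liver, and Mcub, a dampening subunit of the calcium uniporter (-1.82, SE 0.12), and Cnnm2, a magnesium carrier of the cell surface (-1.76, SE 0.19), were past it in iWAT. Slc41a2 averaged 16.01 FPKM in liver and 1.52 in iWAT and was called without passing 2-fold, but not without liver 2 (limma adjusted p = 0.0501).

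Most clock genes were not called, which does not show equal levels. Of 20 tested, 1 was past 2-fold in liver (Bhlhe40, 2.36, SE 0.35), 1 in iWAT (Csnk1e, -1.52, SE 0.14), and 15 were not called. Held within 2-fold were 5, against 46.0% of all genes tested. Nr1d1, a repressor whose level swings over the day, was at 58.2, 6.08 and 17.7 FPKM in livers 1, 2 and 3 and at 54.2, 13.3 and 39.1 FPKM in iWAT samples 1, 2 and 3. Dbp, an output gene of the clock, was at 34.4, 10.4 and 72.1 and 20.5, 24.2 and 54.1 FPKM. The time of day at which tissues were taken is not in the labels.

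The defining markers of hepatocytes and adipocytes went with the labelled tissues. All 14 hepatocyte markers were called higher in liver and 13 were past 2-fold, and their summed level was 62870.3 to 91987 FPKM in livers and 766 to 1046 FPKM in iWAT. Most of the iWAT sum was Cyp2e1, at 1006, 853 and 742 FPKM. All 13 adipocyte markers were past 2-fold in iWAT, with sums of 13113 to 21401 FPKM in iWAT, lowest in iWAT 3, and 809 to 1010.2 FPKM in liver, most of the latter being Car3. Of 12 markers of progenitors and fibroblasts 9 were past 2-fold in iWAT and Dpp4 in liver. Kupffer cells, the resident macrophages of liver, were marked there by Clec4f (38.4, 59.8 and 41.2 FPKM in liver, 0.0358, 0 and 0.0157 in iWAT) and Cd5l (49.6, 119.6 and 53.7 and 0.955, 0.347 and 1.16), both highest in liver 2, and 4 of 8 Kupffer markers were past 2-fold in liver. The macrophage receptors Cd163 (-1.79, SE 0.59) and Folr2 (-1.14, SE 0.34) of the same list were called higher in iWAT. General macrophage markers gave 5 of 10 called higher in iWAT, where 26.5% of all genes tested were, and none past 2-fold. All 10 differences were on the iWAT side, and 9 were called under total reads and likewise under the anchor. Vascular endothelium was on the iWAT side in all 10 markers called, 5 of them past 2-fold, such as Pecam1 at 22.3, 24.96 and 24.4 FPKM in iWAT and 4.25, 3.82 and 2.88 in liver. Of 7 markers of liver sinusoidal endothelium, 5 were called higher in liver, 3 of them past 2-fold, such as Clec4g at 17.5, 15.9 and 22.8 FPKM in liver and 0.287, 0 and 0.267 in iWAT, and Lyve1, also a marker of lymphatic vessels, was called higher in iWAT (-1.35, SE 0.41). The calls of Cd163, Folr2 and Lyve1 were each lost without iWAT 1 or iWAT 2 (limma adjusted p = 0.0719 to 0.116), and also without liver 1 or 2 for Cd163, liver 1 or 3 for Folr2 and liver 3 for Lyve1 (0.0508 to 0.0941). Krt8 and Krt18, entered as markers of mesothelium and mammary epithelium, are also keratins of hepatocytes and were past 2-fold in liver, while the caseins Csn2 and Csn3 were at 0 in every liver.

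Several libraries carried markers of tissue that the label does not name. Muscle genes summed to 177 FPKM in liver 3 against 0.802 and 0.380 in the other livers, and to 145 FPKM in iWAT 2 against 20.1 and 16.8 in the other iWAT samples. Acta1, the actin of skeletal muscle, read 0, 0 and 72.7 FPKM in livers 1, 2 and 3 and 5.58, 41.2 and 9.45 FPKM in iWAT samples 1, 2 and 3, and limma called none of the 10 muscle markers tested. Without liver 3, Acta1 was called higher in iWAT (-3.83, limma adjusted p = 0.0125). Lymphocyte genes were called higher in iWAT for 8 of 12 markers although lymph nodes had been removed. Ighm, the heavy chain of IgM, was at 409, 948 and 313 FPKM in iWAT samples 1, 2 and 3 and at 104, 153 and 20.98 FPKM in liver, and Cd79a, of the B cell receptor, at 18.02, 10.7 and 78.9 and 3.02, 3.00 and 1.45, highest in iWAT 3. The call of Ighm was lost without iWAT 1 or iWAT 2 (limma adjusted p = 0.0532 and 0.0674). The part of these cells in the results above was not tested. Without any 1 of the 6 libraries, 1995 to 2294 genes were past 2-fold, against 2352 with all. Of the red cell markers the globin Hba-a1 was higher in iWAT, at 485, 365 and 553 FPKM there and 114, 78.4 and 123 FPKM in liver, past 2-fold, while Alas2, a heme synthesis gene of red cell precursors, was past 2-fold in liver.

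Some named genes share exonic bases with another gene. In GENCODE vM21, at least 20% of their exonic bases overlap with a gene on the opposite strand for Cideb (76.3%), Folr2 (63.1%), Adrb3 (24.9%), Pklr (22%), Cebpb (20.7%) and Hoxa7 (20.4%). Their values may hold reads of the neighbour.

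The same tissue contrast was made in the other 3 groups of the series, which share no library with wild type on chow. In each of them liver and iWAT were fitted apart from the other groups. Past 2-fold were 19.1% of genes tested in KO mice on chow, 14.9% in WT mice on WD and 18.4% in KO mice on WD. Of the 2352 genes past 2-fold in WT mice on chow, 2164 of 2351 tested (92.0%) were past 2-fold in the same direction in KO mice on chow, 1789 of 2338 (76.5%) in WT mice on WD and 2069 of 2341 (88.4%) in KO mice on WD. In all 4 groups 1667 genes (70.9%) were, 1051 of them higher in liver and 616 in iWAT. Opposite calls past 2-fold were found for 0, 0 and 2 genes. Those 2, named here after their values were seen, belong to cholesterol synthesis. Sqle, squalene epoxidase, was at 53.7, 32.9 and 16.2 FPKM in liver and 3.61, 2.66 and 1.61 in iWAT in WT mice on chow and at 0.544, 0.768 and 0.599 FPKM in liver and 3.10, 2.95 and 3.91 FPKM in iWAT in KO mice on WD. Nsdhl, a sterol dehydrogenase, was at 52.6, 33.8 and 30.4 and 10.5, 11.3 and 6.34 FPKM in WT mice on chow, and at 4.89, 4.43 and 5.73 FPKM in liver and 14.4, 15.7 and 21.2 FPKM in iWAT in KO mice on WD. The median difference of the whole cholesterol list was 2.66 in WT mice on chow and 2.46 in KO mice on chow, and it was 0.55 in WT and 0.46 in KO mice on WD. The change of these differences between groups was not tested here. In comparison, the median of the bile acid list was 5.97, 6.53, 5.65 and 7.06 and that of the Hox genes -1.99, -1.94, -1.89 and -1.83 in WT on chow, KO on chow, WT on WD and KO on WD.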

How the data were processed

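Poly-A RNA of 3 livers and 3 iWAT samples of wild-type mice on chow was sequenced as paired reads of 150 bases, per the labels' protocols. HISAT2 2.0.5, DESeq2 1.20.0 and the mm10 build are named in the submitters' processing notes, and the sources used here do not state the counting tool, how it treated shared reads or strand. The deposited table gives FPKM per gene and library. Each FPKM value above 0 was a whole number of reads times a step per library and length: whole reads were recovered for 100.0% of 540911 values within 0.01 reads, and all 64434 deposited counts compared were equal to them. A further 32 value columns were left aside.

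Samples were grouped by their labels. Genes with a mean of at least 0.5 FPKM over the 6 libraries were tested on log2(FPKM + 1) with limma 3.58.1 (trend and robust options) in R 4.3.3, with Benjamini-Hochberg adjustment over all genes tested and treat for the 2-fold threshold. The script was tested on simulated data. Alternatives were a pseudocount of 0.1, no filter or a filter of 5 FPKM, 4 other scalings, the count models of edgeR 4.0.16 and DESeq2 1.42.0 applied to these reads, a replicate block, all 24 libraries in 1 fit and leaving out each library. Read shares used the recovered reads, a measure added after seeing the data. Gene models came from GENCODE vM21, which held 54495 of the identifiers, and promoters from RefSeq.

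The members and lists were chosen with earlier results of these data known. Genes named are the 15 largest differences in each direction with at least 10 FPKM, up to 5 past 2-fold and up to 3 abundant genes not past it in each list, all isozyme pairs, the Hox genes tested, Mrs2, the 5 highest genes of each tissue and up to 3 genes of each marker list. A few further genes were named after their values were seen, to show single libraries or members at low levels. Some genes that the rule names are not reported here.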

Additional observations from a re-analysis of the deposited data

How the results depend on the processing

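The count of genes past 2-fold moved with the pseudocount and with the test: 3573 with a pseudocount of 0.1 (1731 of them higher in iWAT), 4402 with edgeR (2110 in liver, 2292 in iWAT) and 3763 with DESeq2 (1875 in iWAT), against 2352 with limma. A filter of 5 FPKM left 6759 genes, with 4243 called (2787 in liver, 1456 in iWAT), 559 past 2-fold in iWAT and 3045 held within 2-fold. Of these calls 65.7% were higher in liver. With no filter 20778 of 29826 genes were held within 2-fold. Under total reads 2173 genes were called higher in liver and 8536 in iWAT, with 2116 past 2-fold in iWAT, and 3 called genes among those named turned, Insr to -0.05, Mrs2 to -0.26 and mt-Co1 to -0.10, beside 4 named genes that were not called (Acadl, Ghr, Plin2 and Vegfa). The cause was not tested. Of 159 named genes 136 kept their call under every alternative run. Leaving out each library gave 6786 to 7647 called genes and 1995 to 2294 past 2-fold. Whether equal replicate numbers mark the same mouse is not known. Deviations of equally numbered liver and iWAT samples correlated by 0.17, 0.05 and 0.01, livers 1 and 2 correlated best with their own number and liver 3 did not, and a replicate block gave 7608 called genes and 2262 past 2-fold. Differences of genes near the 0.5 FPKM filter rest on few reads, and 3 samples per tissue limit the precision of all of them.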
